A study of Oryza sativa with 10 samples.

Results

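The genes described here encode enzymes that open the sucrose molecule in rice (Oryza sativa): 6 sucrose synthases and 3 acid invertases. Other sucrose-cleaving enzymes are given further on as related genes. They were taken from a given list of locus identifiers, by enzyme and not by a cutoff on any measured value, and all 9 are present among the 37727 loci of the counts. The sucrose synthases are SUS1 (Os03g0401300), SUS2 (Os06g0194900), SUS3 (Os07g0616800), SUS4 (Os03g0340500), SUS5 (Os04g0309600) and SUS6 (Os02g0831500). The invertases are the cell wall enzyme GIF1 (Os04g0413500) and the vacuolar enzymes INV2 (Os04g0535600) and INV3 (Os02g0106100).

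Sucrose made in leaves travels through the phloem to the grain, where it must be cleaved before its carbon can enter starch. Sucrose synthase does this reversibly and yields UDP-glucose and fructose, so the energy of the bond is kept for cell wall and starch synthesis. Acid invertases hydrolyse sucrose irreversibly to glucose and fructose, either in the cell wall space, where phloem sucrose is unloaded, or in the vacuole, where hexoses accumulate during cell expansion.

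RNA was sequenced from endosperm, the starch-storing tissue of the grain, and from flag leaves, the uppermost leaves that feed the panicle. All plants were wild-type cultivar Nijinokirameki, grown in paddy fields and sampled at day 5 after flowering in 2024. Green manure (GM) plants grew on soil into which hairy vetch (Vicia villosa) had been plowed, with no chemical fertilizer. Chemical fertilizer (CF) plants, the control, received basal nitrogen (N), PO4 and potassium (K), in this order 56, 176 and 56 kg/ha. There were 2 GM and 2 CF endosperm libraries, each from spikelets pooled within a single plant and freed of the embryo by dissection while frozen, and 3 GM and 3 CF leaf libraries. The labels describe no repeated plots and do not say whether leaf replicates were separate plants, so p-values measure only the spread between these samples.

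Counted reads per library were 20771235 and 18656783 in GM endosperm, 19173953 and 12200510 in CF endosperm, 12500336 to 15933394 in GM leaves and 18540688 to 25827356 in CF leaves, so each GM leaf library was shallower than each CF leaf library. Tissue markers fitted the tissue labels for 8 of 8 endosperm genes, all higher in endosperm, and for 4 of 5 leaf genes, which were lower there. The exception was the chlorophyll-binding protein gene LHCB1 (Os01g0720500), higher in endosperm by a log2 difference of 2.00 under GM and 2.89 under CF. Values are CPM (counts scaled to a common library size) after trimmed mean of M values (TMM) scaling, which removes differences in library composition. A gene was called changed at a Benjamini-Hochberg adjusted p under 0.05 in edgeR's quasi-likelihood F test, run over all genes with enough reads.

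Sucrose synthase transcripts belonged mainly to the endosperm. All 6 genes were higher there than in the flag leaf, under GM and under CF alike. SUS3, the isoform known from rice as the one of the filling endosperm, gave 65053 and 66818 reads in GM endosperm and 65690 and 35547 in CF endosperm. In leaves the same gene gave 1, 0 and 1 reads under GM and 3, 0 and 0 under CF, so the tissues did not overlap and the leaf was near the limit of detection. On pooled, scaled reads the endosperm level of SUS3 was 52700 times that of the leaf under GM (95% interval 14600 to 435000) and 55700 times under CF (19100 to 270000); these intervals cover counting error only.

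The other sucrose synthases differed less between tissues. SUS1 had a log2 difference between endosperm and leaf of 5.00 under GM (SE 0.12) and 5.55 under CF (SE 0.12). SUS2, known as a broadly expressed isoform, differed by 2.23 under GM (SE 0.16) and 2.27 under CF (SE 0.16). SUS4 differed by 2.56 under GM (SE 0.12) and 2.83 under CF (SE 0.12). Among the sucrose synthases, SUS2 and SUS4 had the most leaf reads. SUS6 differed by 2.06 under GM (SE 0.30) and 1.86 under CF (SE 0.27), on 6 to 20 reads per leaf library. SUS5 had 66 reads in GM endosperm against 2 in GM leaves, and 38 reads in CF endosperm against 1 in CF leaves, each summed over the group, a ratio of 26.4 under GM (7.01 to 222) and 62.8 under CF (10.6 to 2540). SUS5 is annotated in the deposited tables as having a duplicate, RSUS7 (Os04g0249500), and reads matching both copies are not in unique counts, so its level is uncertain.

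Among the 3 acid invertases described here the tissues divided by gene. GIF1, the cell wall invertase whose loss leaves rice grains incompletely filled, was an endosperm transcript. It gave 4960 and 3426 reads in GM endosperm against 0 in each of the 3 GM leaves, and 5381 and 2580 reads in CF endosperm against 0, 3 and 0 in CF leaves. With a floor of 3 reads over the GM leaves (0.0802 CPM), its level was at least 2230-fold higher in GM endosperm, and the CF ratio was 4380 (1500 to 21300). INV2 ran the other way: it had 4 and 2 reads in GM endosperm against 53, 60 and 67 in GM leaves, and 2 and 5 reads in CF endosperm against 45, 61 and 89 in CF leaves. Its log2 difference between endosperm and leaf was −5.16 under GM (SE 0.42) and −4.00 under CF (SE 0.42). INV2 was the member with its higher level in the leaf.

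INV3, a vacuolar invertase tied to grain size in rice, was found in both tissues. Scaled over all 10 libraries together, its level was 34.71 and 32.62 CPM in GM endosperm and 12.93, 41.40 and 27.72 CPM in GM leaves, which overlapped. Under CF it was 52.56 and 49.19 CPM in endosperm against 19.06, 22.01 and 15.96 CPM in leaves, with no overlap. The log2 difference between endosperm and leaf was 0.30 under GM (SE 0.39, adjusted p = 0.5 in edgeR) and 1.43 under CF (SE 0.38, adjusted p = 0.0102). The median over all genes tested was 0.16 under GM and 0.15 under CF. Without CF endosperm replicate 1 the CF difference for INV3 was 1.38, and its adjusted p of 0.0502 lay just past the threshold.

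In all, 8 of 9 members were called between tissues under GM, 7 higher and 1 lower in endosperm, and 9 of 9 under CF, 8 higher and 1 lower. Such calls were common: of 25035 genes tested, 82.3% were called under GM (44.6% higher and 37.7% lower in endosperm) and 83.1% under CF (45% higher and 38.1% lower). The tissues did not overlap for those same 8 members under GM, against 87.5% of all genes, and for all 9 under CF, against 89.6% of all genes. The members' median log2 difference was 2.56 under GM and 2.83 under CF. In bulk tissue, fewer cells of a type and less RNA per cell cannot be told apart.

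**Figure D1:**
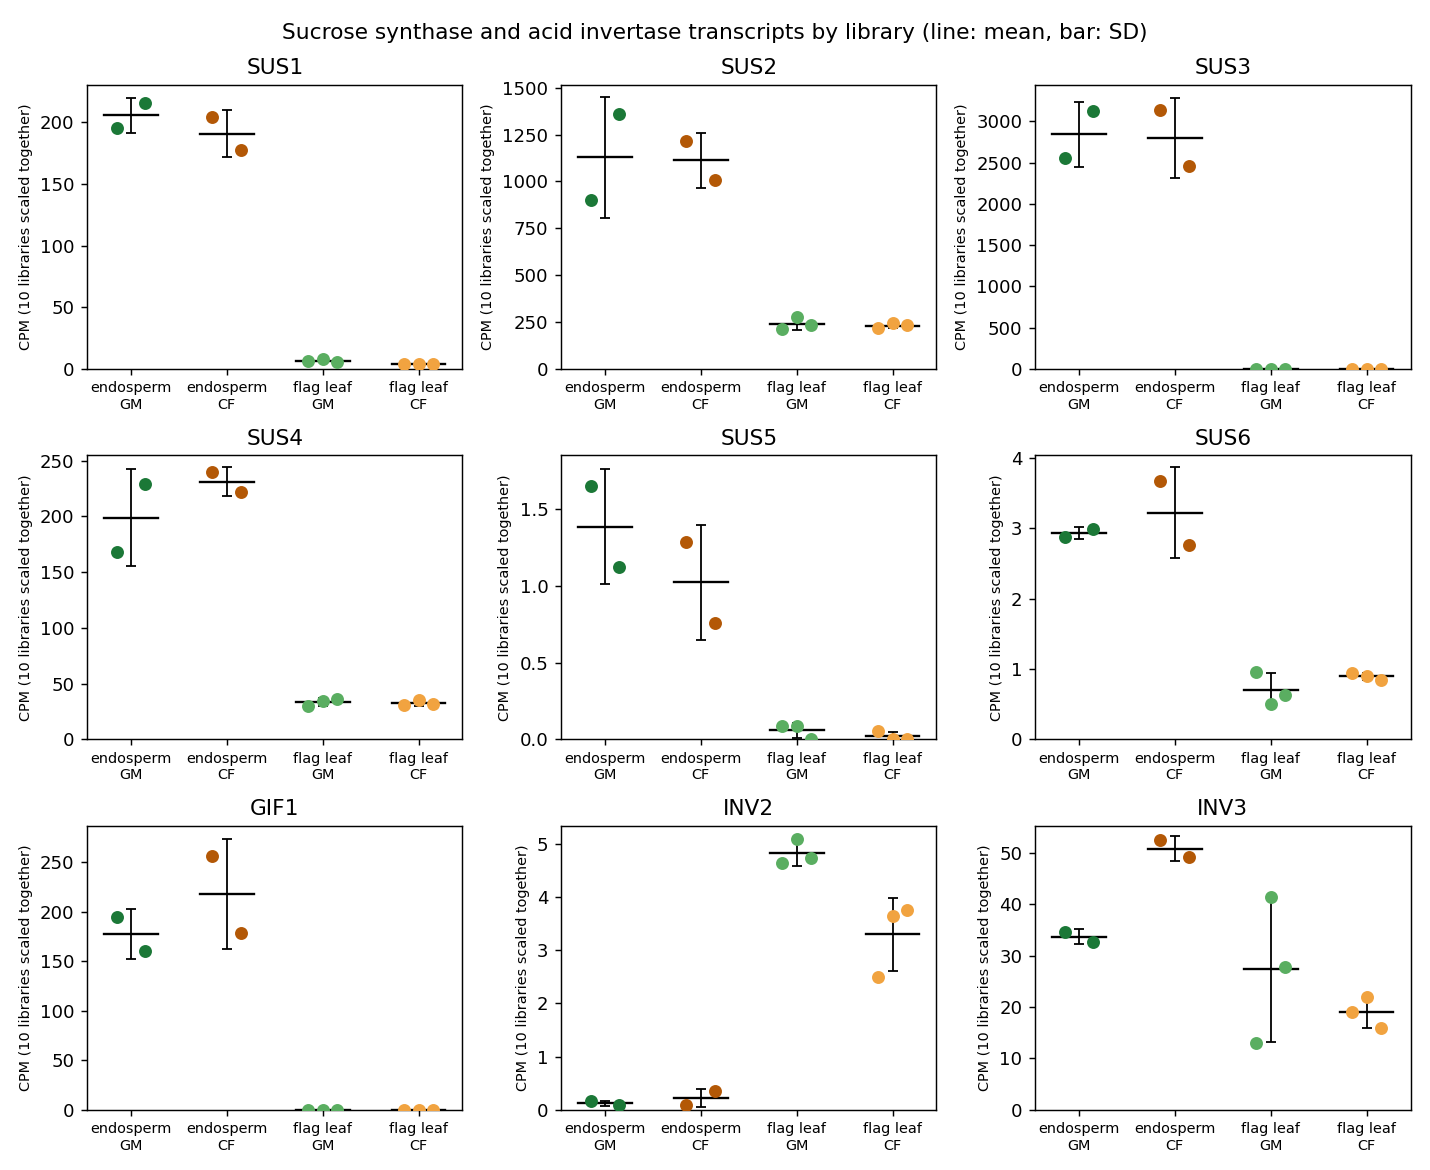
CPM of each gene in every library, with all 10 libraries scaled together; points are libraries, lines are group means and bars are SDs (n = 2 for endosperm, n = 3 for flag leaf), and each panel has its own linear axis from 0. SUS1 to SUS6 and GIF1 stand higher in endosperm, INV2 stands higher in leaf, and INV3 overlaps between tissues under GM.

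The next question was whether the fertilizer regime altered these transcripts within a tissue, with each tissue scaled and fitted alone. In the endosperm 8 of 9 members had enough reads to be tested, all but INV2. INV3 was lower under GM and was the 1 member called, against 1.26% of all 23094 genes tested (1.23% lower and 0.0303% higher). It was also the 1 tested member whose GM and CF libraries did not overlap, which held for 46.3% of all genes tested.

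INV3 had 39.84 and 37.73 CPM in GM endosperm, against 60.55 and 58.76 CPM in CF endosperm. Both GM plants lay below both CF plants, and plants of the same regime differed little, with means of 38.8 ± 1.5 CPM under GM and 59.65 ± 1.27 CPM under CF (SD, n = 2 each). The log2 fold change was −0.62 (SE 0.10, 95% interval −0.83 to −0.41, edgeR adjusted p = 0.00696). Among alternatives that kept every endosperm library, the call was lost only in a single fit of all 10 libraries (log2 fold change −0.60, SE 0.41, edgeR adjusted p = 0.571). That fit shared each gene's spread estimate between tissues, and it also changed the scaling and the genes tested. The coefficient of variation of INV3 was 52.4% in GM leaves, against 3.86% in GM endosperm and 2.12% in CF endosperm. The cause of the lost call was not tested. Fits without an endosperm library gave −0.66 to −0.58, but each left a regime with a single plant.

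GIF1 had 224.1 and 185.2 CPM in GM endosperm, against 295.9 and 212.9 CPM in CF endosperm. 1 GM value lay between the CF values, and the log2 fold change of −0.32 (SE 0.17, interval −0.69 to 0.06) did not pass the test, at adjusted p = 0.425 in edgeR. INV2, with the endosperm reads given above, could not be tested there.

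None of the 6 sucrose synthases was called in the endosperm. SUS3 had 2939 and 3611 CPM in GM endosperm, against 3612 and 2933 CPM in CF endosperm. SUS2 had 1034 and 1570 CPM in GM endosperm, against 1402 and 1206 CPM in CF endosperm. For both genes the spread between plants of a regime covered the whole difference. The log2 fold change was 0.00 for SUS3 (interval −0.43 to 0.43) and −0.00 for SUS2 (interval −0.45 to 0.44), so the data leave room for a change of about that size in either direction.

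SUS1 had 224.7 and 249.1 CPM in GM endosperm, against 235.4 and 211.8 CPM in CF endosperm, a log2 fold change of 0.08 (SE 0.12). SUS4 had 192.8 and 265.4 CPM in GM endosperm, against 276.8 and 265.1 CPM in CF endosperm, a log2 fold change of −0.24 (SE 0.15, adjusted p = 0.481 in edgeR). In both the regimes overlapped. SUS5 and SUS6, with 11 to 77 reads per endosperm library, had log2 fold changes of 0.39 (SE 0.40) and −0.17 (SE 0.24). Summed, the 6 sucrose synthases came to 5048 ± 923 CPM in GM endosperm and 5076 ± 645 CPM in CF endosperm (SD, n = 2 each), and GIF1, INV2 and INV3 together to 243.6 ± 29.1 CPM in GM and 314.4 ± 59.8 CPM in CF.

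Marker sums of the same endosperm libraries also stood apart by regime. The embryo and aleurone list summed to 583.6 and 506.7 CPM in GM endosperm, against 1050 and 1133 CPM in CF endosperm. Of its 6 genes 5 were tested, and all 5 had negative log2 fold changes. Of these, 3 were called lower and none higher, against 1.23% lower and 0.0303% higher of all genes tested. RAB16A (−1.57, adjusted p = 0.0707 in edgeR) and EMP1 (−0.65, regimes overlapping) were not called. The meristem gene OSH1 was at 0 in both CF libraries and had 7 reads over the GM libraries. The list of 8 endosperm markers summed to 24150 and 29750 CPM under GM, against 34720 and 32030 CPM under CF, and the 5 leaf markers to 1590 and 1672 CPM under GM, against 2722 and 1980 CPM under CF, with no gene of either list called. The storage protein gene GluA2 weighed most in the endosperm sum, with means of 8951 CPM under GM and 13100 CPM under CF. In the same list AGPL2, SBE3 and RISBZ1 overlapped between regimes, and AGPL2 had a positive log2 fold change (0.06, SE 0.21). Of all genes tested in endosperm, 46.3% did not overlap between regimes. The 3 pericarp and nucellus markers, of which 2 are also leaf markers, summed to 1004 and 1041 CPM under GM, against 1765 and 1283 CPM under CF. The remaining gene of that list, MADS29 (Os02g0170300), had 81.7 ± 2.86 CPM under GM and 85.9 ± 6.86 CPM under CF. Its regimes overlapped (log2 fold change −0.07, SE 0.10), so the lower sum came from the leaf markers in the list. The part of these marker genes in the INV3 difference was not tested.

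In the flag leaf 6 of 9 members had enough reads, all but SUS3, SUS5 and GIF1, and edgeR called none of them, against 2.94% of all 20208 genes tested (2.47% higher and 0.47% lower). DESeq2 and limma-voom also called 0. At an unadjusted p under 0.05 in edgeR there were 2, SUS1 and INV2, but all genes were not counted at that cutoff. SUS1 and INV2 were also the tested members whose GM and CF leaves did not overlap, which held for 22.3% of all genes tested.

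SUS1 had 5.48, 6.95 and 5.17 CPM in GM leaves, against 3.44, 3.83 and 3.75 CPM in CF leaves. The 3 GM leaves were all above the 3 CF leaves, and the log2 fold change was 0.67 (SE 0.17, interval 0.31 to 1.03). Its adjusted p of 0.0516 in edgeR missed the threshold, and it passed in 4 of 15 alternatives, over which the adjusted p ran between 0.0289 and 0.190; leaving out GM leaf replicate 1 was among the 4 (adjusted p = 0.0444). These values rest on 69, 90 and 81 reads in GM leaves and 69, 71 and 98 reads in CF leaves. With all leaf libraries thinned to equal depth the log2 fold change was 0.80 (edgeR adjusted p = 0.0314). The thinning was a single random draw that discards reads, so it adds no evidence for a change in SUS1.

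INV2, a homolog of INV3, had 4.21, 4.63 and 4.28 CPM in GM leaves, against 2.24, 3.29 and 3.41 CPM in CF leaves. The GM leaves were again all above the CF leaves, but the log2 fold change of 0.55 (SE 0.19, interval 0.12 to 0.97) did not pass adjustment (adjusted p = 0.169 in edgeR). INV3 had 11.76, 37.77 and 25.01 CPM in GM leaves, against 17.10, 19.89 and 14.50 CPM in CF leaves. Its GM leaves spread on both sides of the CF leaves, and the log2 fold change of 0.54 (SE 0.42, adjusted p = 0.603) did not pass the test. It was 0.12 without GM leaf replicate 2 and 0.87 (adjusted p = 0.0582) without GM leaf replicate 1.

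SUS2 had 194.9, 252.5 and 210.5 CPM in GM leaves, against 193.0, 220.0 and 211.0 CPM in CF leaves. SUS4 had 27.17, 31.75 and 32.48 CPM in GM leaves, against 27.52, 31.69 and 28.84 CPM in CF leaves. Both overlapped almost fully between regimes, with log2 fold changes of 0.08 (interval −0.14 to 0.29) and 0.06 (interval −0.15 to 0.26). SUS6, at under 1 CPM in every leaf, had a log2 fold change of −0.34 (SE 0.36).

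**Figure D2:**
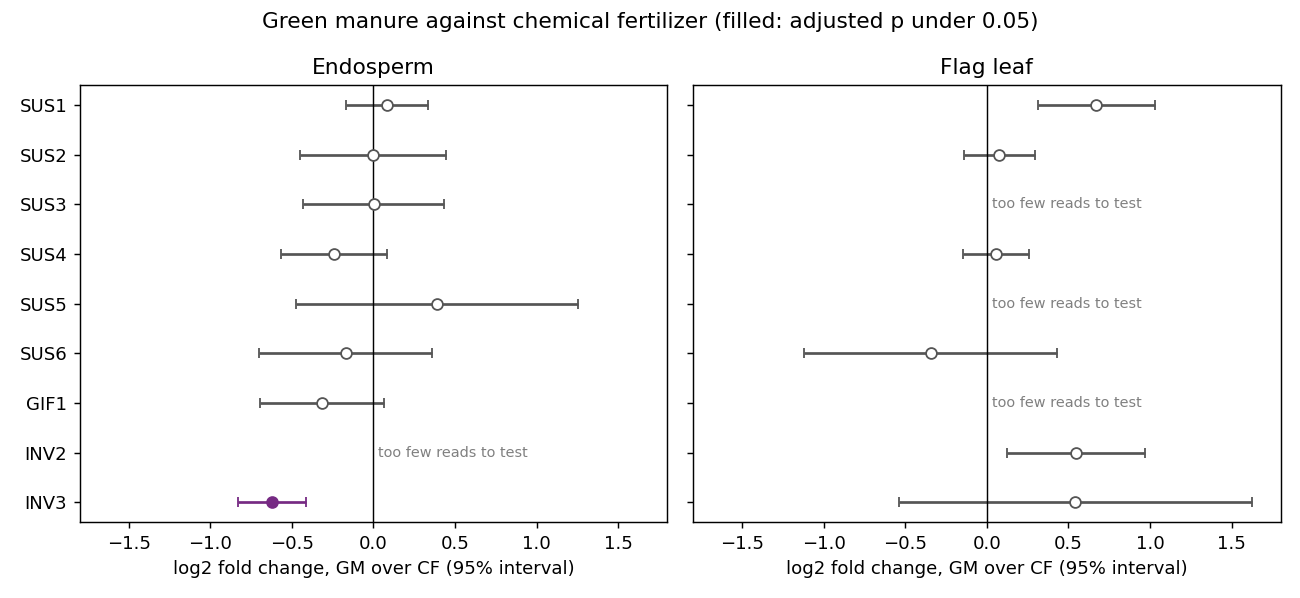
Log2 fold change of GM over CF for each gene in endosperm (left) and flag leaf (right); points are edgeR estimates, bars are 95% intervals, and a filled point marks an adjusted p under 0.05. INV3 in endosperm, at −0.62, is the filled point; SUS1 and INV2 in leaf have intervals above 0 but did not pass adjustment.

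**Figure D3:**
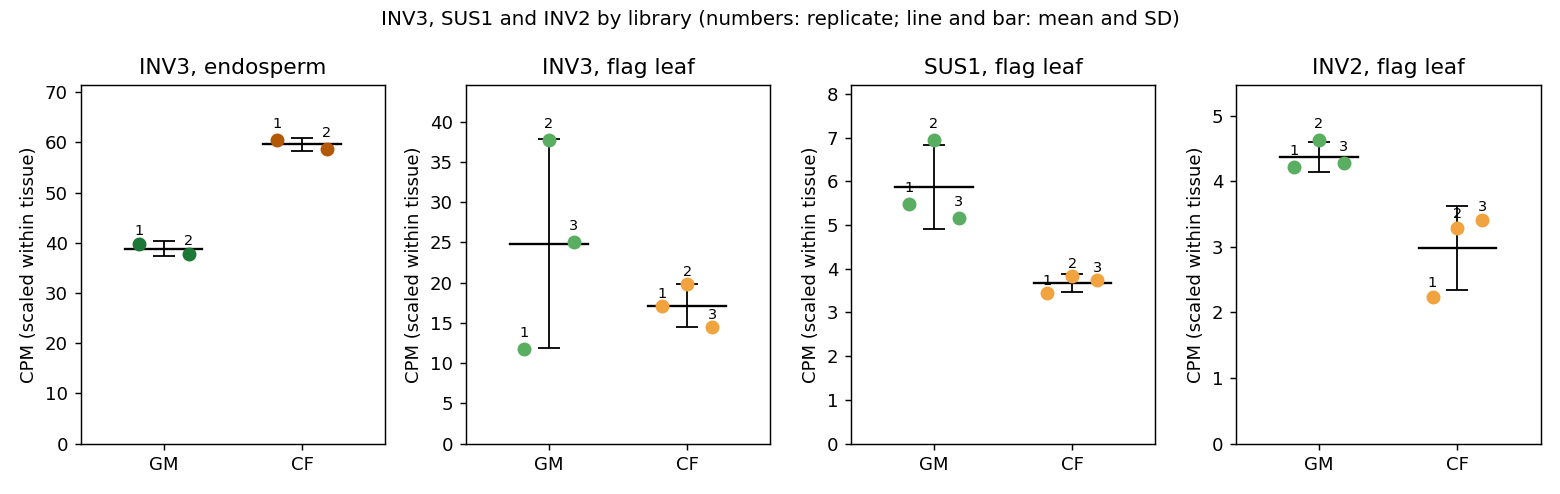
CPM of INV3 in endosperm and flag leaf, and of SUS1 and INV2 in flag leaf, by library and scaled within the tissue, with GM left of CF; numbers are replicates, lines are means and bars are SDs (n = 2 or 3). INV3 parts the regimes in endosperm, with GM below CF, and overlaps in leaf, while the 3 GM leaves lie above the CF leaves for SUS1 and INV2.

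Whether the GM effect differed between the 2 tissues was tested in a fit of all 10 libraries that subtracted the leaf effect from the endosperm effect. No member was called, against 0.615% of 25035 genes (0.0599% higher and 0.555% lower), and DESeq2 and limma-voom called 0. At an unadjusted p under 0.05 in edgeR there was 1 member, SUS1, but all genes were not counted at that cutoff. INV3 had a difference of −1.13 on the log2 scale (SE 0.55, adjusted p = 0.491 in edgeR), and without GM leaf replicate 1, its lowest leaf value, −1.43 (adjusted p = 0.00752). SUS1 had a difference of −0.55 (SE 0.17, adjusted p = 0.203). The opposite signs of INV3 in the 2 tissues are therefore not shown to differ with all libraries in.

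Each tissue drew most of the reads of the 6 sucrose synthases from a different gene, under GM and under CF. Of these reads, SUS3 gave 65.1 ± 2.48% in GM endosperm and 64.4 ± 1.28% in CF endosperm, and SUS2 gave 25.5 ± 2.84% in GM and 25.7 ± 0.53% in CF (SD, n = 2 each). In leaves SUS2 gave 85.5 ± 0.987% under GM and 86.0 ± 0.316% under CF, and SUS4 gave 11.9 ± 1.09% under GM and 12.1 ± 0.287% under CF (n = 3 each). The SUS1 share in leaves was 2.29 ± 0.181% under GM and 1.52 ± 0.0224% under CF, with GM leaves at 2.08% or more and CF leaves at 1.53% or less.

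Of the summed reads of GIF1, INV2 and INV3, without the other acid invertases given further on, GIF1 gave 83.9 ± 1.28% in GM endosperm and 80.6 ± 3.35% in CF endosperm, with nearly all the rest from INV3. In leaves INV3 gave 82.7 ± 8.07% of the reads of these 3 genes under GM and 84.9 ± 3.72% under CF, and INV2 gave 17.3 ± 8.07% under GM and 14.9 ± 3.78% under CF. Shares are of counted reads, not divided by gene length, so a longer gene weighs more and they do not rank transcript numbers. No test was made on them.

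**Figure D4:**
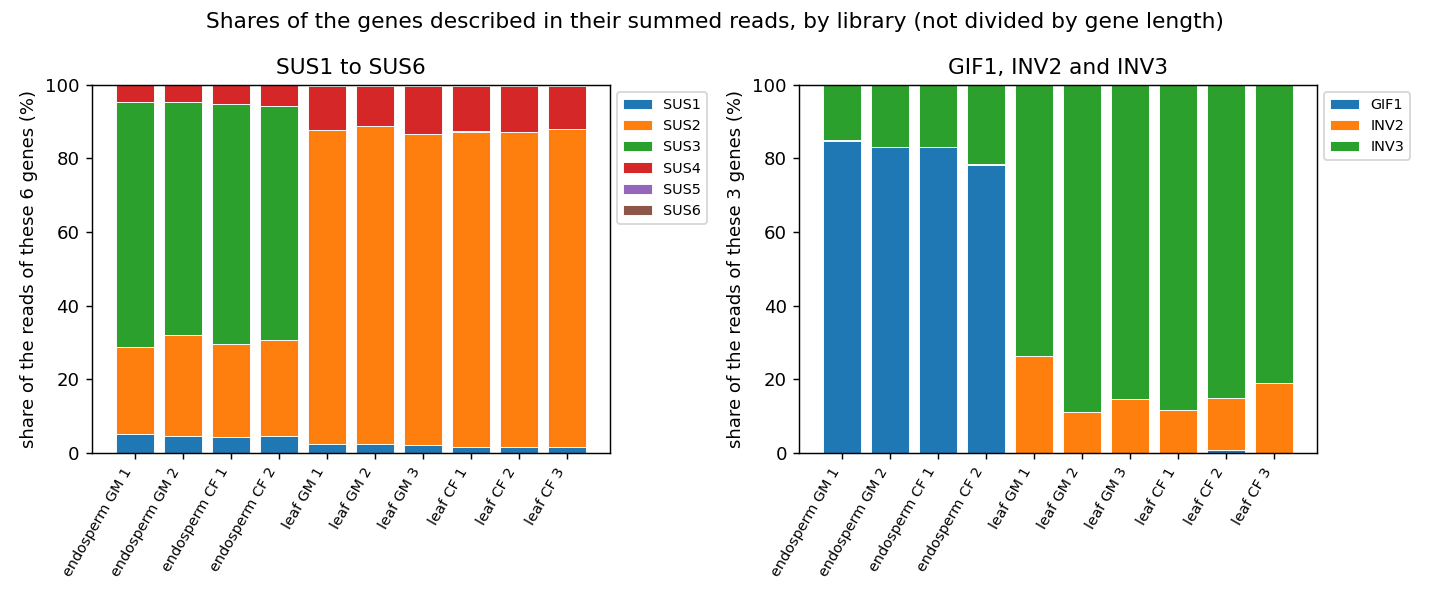
Share of each gene in the summed counted reads of SUS1 to SUS6 (left) and of GIF1, INV2 and INV3 (right), in percent, as stacked bars with 1 bar per library; other acid invertases are not included. Among the genes plotted, SUS3 gives the most reads in endosperm and SUS2 in leaf, and GIF1 in endosperm and INV3 in leaf, in all libraries of a tissue; SUS5 and SUS6 are too small to see.

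For 4 members the gene with the most similar profile over the 10 libraries was sought. Likeness was the root mean square difference between log2(CPM + 1) profiles, each centred on its own mean, among 7161 named genes of at least 5 CPM; since tissue dominates these profiles, it is a description. The nearest to SUS3 was BT1-1 (Os02g0202400), the plastid ADP-glucose transporter of starch synthesis, at 0.16. The nearest to GIF1 was Os08g0142900, a protein with the invertase and pectin methylesterase inhibitor domain, at 0.13. INV2 was nearest to the acyl-CoA synthetase gene LACS3 (Os06g0158000) at 0.18, and INV3 to the dirigent family gene DIR35 (Os11g0178800) at 0.20. The match of INV2 is loose, because the added 1 CPM shrinks the tissue difference of a gene this low. INV2 had 0.13 CPM in GM and 0.22 CPM in CF endosperm, and its leaf level was 37.6 times higher under GM and 16.9 times under CF. LACS3, at 2.73 CPM in endosperm and 14.3 CPM in leaf, differed less.

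The enzymes around these steps were examined as 53 related genes, of which 40 were tested in endosperm and 31 in leaf. EdgeR, DESeq2 and limma-voom each called 0 in each tissue. At an unadjusted p under 0.05 in edgeR there were 7 in endosperm and 4 in leaf. All genes were not counted at that cutoff, so these counts have no background to be read against. The median log2 fold change of the related genes was −0.05 in endosperm and 0.02 in leaf, against 0.00 in both tissues for all genes tested. In the endosperm 7 of 8 neutral and alkaline invertases, which cleave sucrose in the cytosol and organelles, had negative values (median −0.20). So did 7 of 8 inhibitor-domain genes (median −0.20) and 2 of 3 other acid invertases (median −0.33). The remaining lists leaned the other way. Positive values were found for 5 of 7 sucrose phosphate synthases and phosphatases (median 0.145) and 6 of 11 hexokinases and fructokinases (median 0.046). All 3 UDP-glucose pyrophosphorylases were also positive (median 0.116). The share of negative values among all genes was not counted. In the leaf 6 of 8 neutral and alkaline invertases had positive values (median 0.11), and no inhibitor-domain gene had enough reads. There 6 of 8 sucrose phosphate synthases and phosphatases had negative values (median −0.05), and 6 of 10 hexokinases and fructokinases positive ones (median 0.08). None of these genes passed the test.

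By level, the leading other acid invertase was INV1 (Os09g0255000), a cell wall enzyme, in endosperm and CIN1 (Os02g0534400), also a cell wall enzyme, in leaf. INV1 had 11.9 ± 0.153 CPM in GM endosperm and 15.04 ± 0.0345 CPM in CF endosperm, a log2 fold change of −0.33 (SE 0.13, adjusted p = 0.279 in edgeR). Its regimes did not overlap, which held for 46.3% of all genes tested in endosperm. CIN1 had 104.5 ± 8.42 CPM in GM leaves and 86.6 ± 4.35 CPM in CF leaves, a log2 fold change of 0.27 (SE 0.08, adjusted p = 0.0970). CIN1 was a leaf transcript, at a log2 difference between endosperm and leaf of −6.25 under GM and −7.02 under CF, opposite to GIF1 of the same class.

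Of the neutral invertases, NIN8 (Os02g0550600) led in endosperm, with 82.9 ± 5.59 CPM under GM and 84.9 ± 0.597 CPM under CF. NIN3 (Os02g0529400) led in leaf, with 107.6 ± 4.98 CPM under GM and 101.1 ± 7.99 CPM under CF. Neither was called. NIN4 (Os04g0409900), singled out after its values were seen, had the same sign in both tissues, with 37.8 ± 2.01 CPM in GM endosperm and 50.6 ± 0.89 CPM in CF endosperm (log2 fold change −0.42, adjusted p = 0.0664 in edgeR), and 13.7 ± 0.938 CPM in GM leaves and 18.3 ± 2.1 CPM in CF leaves (log2 fold change −0.41, adjusted p = 0.0734).

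Between tissues, calls among the related genes were read against the 44.6% higher and 37.7% lower in endosperm of all genes under GM, and the 45% and 38.1% under CF. The 8 neutral and alkaline invertases were mixed, with 3 higher and 4 lower in endosperm under GM and 4 higher and 4 lower under CF. Of 4 other acid invertases tested, 1 was higher and 2 lower in endosperm under GM, and 2 were higher and 2 lower under CF. All 8 inhibitor-domain genes were higher in endosperm under GM and under CF, led by PMEI14 (Os03g0639400) with 591.3 ± 83.5 CPM in GM endosperm and 647.5 ± 89.5 CPM in CF endosperm, and with 1 read in all GM leaves and 0 in CF leaves. Of the sucrose phosphate synthases and phosphatases, which make sucrose, 7 of 8 tested were lower in endosperm under either regime; SPS1 (Os01g0919400) had 276.6 ± 39.7 CPM in GM leaves and 326.3 ± 16.4 CPM in CF leaves, and SPS8 (Os08g0301500) had 144.1 ± 3.52 CPM in GM endosperm and 131.5 ± 10.4 CPM in CF endosperm. Of 11 hexokinases and fructokinases, which phosphorylate the hexoses released, 10 were higher in endosperm under GM and 9 under CF. The fructokinase FKII (Os08g0113100) had 351.5 ± 6.32 CPM in GM endosperm and 410.2 ± 41.5 CPM in CF endosperm.

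The hexokinase HXK6 (Os01g0742500), highest of its list in leaf, had 99.7 ± 7.94 CPM in GM leaves and 103.7 ± 4.13 CPM in CF leaves. All 3 tested UDP-glucose pyrophosphorylases, which use the UDP-glucose made by sucrose synthase, were higher in endosperm under both regimes; UGP1 (Os09g0553200) had 1330 ± 198 CPM in GM endosperm and 1275 ± 50.2 CPM in CF endosperm. INVINH1 (Os02g0689000), highest of the inhibitor-domain list in leaf, had 3 reads over the GM leaves and 11 over the CF leaves. RSUS7, the copy of SUS5, had 5 reads over the GM endosperm and 0 over the CF endosperm.

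**Figure D5:**
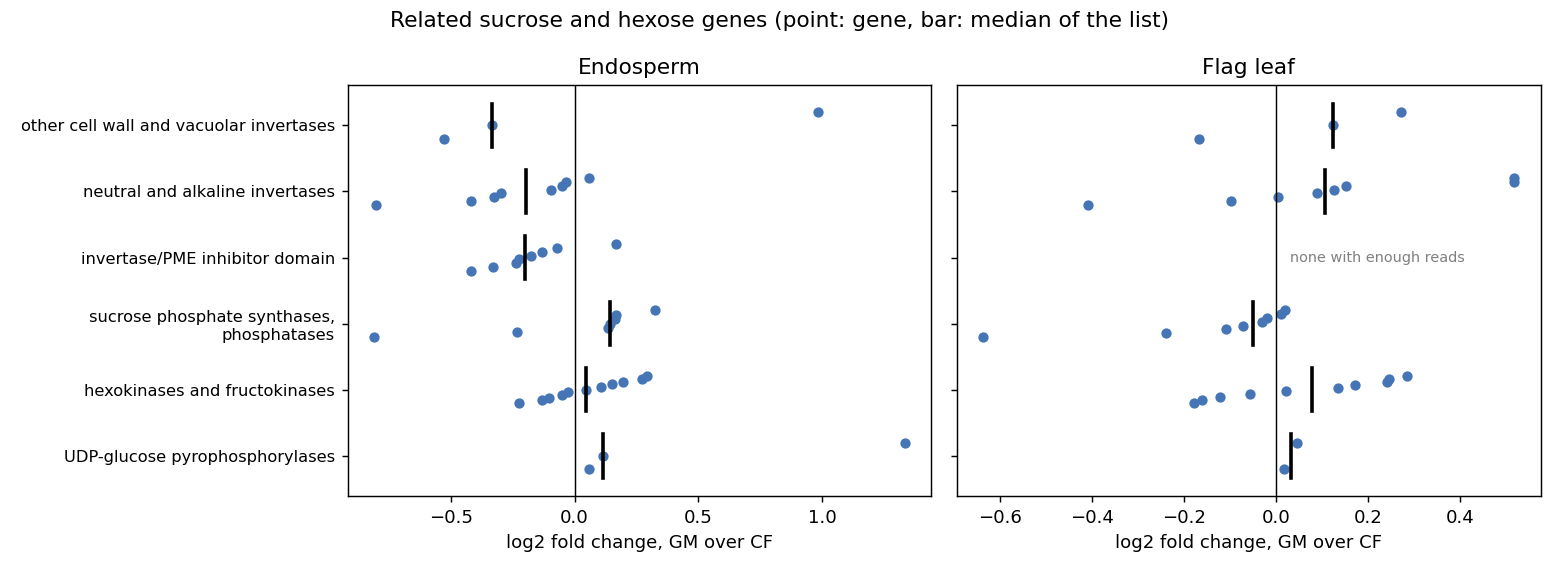
Log2 fold change of GM over CF for the tested related genes, by list, in endosperm (left) and flag leaf (right), on axes of different range; points are genes and bars are list medians. Most neutral invertases and inhibitor-domain genes lie below 0 in endosperm, with list medians of −0.20. Most sucrose phosphate synthases and phosphatases lie above 0 there, with a list median of 0.145. No gene shown passed the test.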

How the data were processed

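Per the labels, the authors deposited a table for each tissue with unnormalised counts of reads mapping uniquely to the exons of a gene; libraries were poly(A) and directional. Per the submitters' processing notes, reads were placed on IRGSP-1.0. Which aligner and counter were run is not given in the sources used here. Unique counting drops reads that fit several similar copies. No gene lengths of that build were used here, so the planned shares per coding length were replaced by shares of counted reads, and no sequences or coordinates are given.

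Tests were run with edgeR 4.0.16 (filterByExpr, minimum count 10; TMM; robust quasi-likelihood F test; Benjamini-Hochberg adjustment over all genes tested), limma 3.58.1 and DESeq2 1.42.0 under R 4.3.3, and figures were drawn in Python 3.11.15 with matplotlib 3.10.9. GM was compared with CF within each tissue's own fit; the tissue and difference tests used all 10 libraries. The SE is the log2 fold change divided by the square root of F, in absolute value. Ratios of few reads have exact conditional 95% intervals, and a sum of 0 has a floor of 3 reads. The procedure was also run on simulated data, with the same dispersion for every gene and changes placed only in genes with many reads. That run does not cover members with few reads or a wide spread. Replicates differed by more than sampling noise (chi-square per gene 5.02 to 12.2). Same-numbered replicates are not stated to be paired. Alternatives were upper-quartile and RLE scaling, a filter of at least 5 CPM or none, DESeq2, limma-voom, a replicate block, the 20 most abundant genes left out, thinned leaf libraries, a single fit and left-out libraries.

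The members were listed by enzyme, but they, the related lists, markers and tests were chosen with earlier results of these data known; 15 genes of other function were dropped from the related lists by annotation. All 9 members are named, and of each related list the gene of highest mean CPM in each tissue, any called gene, and for SUS3, GIF1, INV2 and INV3 the nearest profile.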

Additional observations from a re-analysis of the deposited data

How the results depend on the processing

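INV3 in endosperm stayed negative under all 13 alternatives (−0.66 to −0.58). The count of members called there was 1 and became 0 in a single fit of all 10 libraries. In the leaf it was 0 and became 1, SUS1, in that single fit, with leaf libraries thinned to equal depth and with no low-count filter; it was also 1 without leaf GM replicate 1, and 0 to 1 over left-out leaf libraries. For the difference between tissues it was 1 (INV3) without leaf GM replicate 1, and 0 to 1 over left-out libraries. Between tissues under GM, the filter of at least 5 CPM left 5 calls of 8, because low members were no longer tested; upper-quartile scaling put the all-gene median at 0.32 under GM and 0.32 under CF, against 0.16 and 0.15. Of all genes, 292 were called in endosperm, against 184 with limma-voom, 1370 with no filter and, with a library left out, 135 (CF replicate 1), 694 (GM replicate 1) or 944 (GM replicate 2); 594 were called in leaf, against 335 in the single fit, 987 with no filter and, with a library left out, 40 (CF replicate 2), 70 (CF replicate 3), 313 (GM replicate 2) or 933 (GM replicate 1). Related genes called were 0 in each tissue, against 3 in endosperm and 1 in leaf with no filter, and 2 in endosperm without GM replicate 1 and 1 without GM replicate 2. The causes of these shifts were not tested, apart from the filter.

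With the replicate block, 168 genes were called in endosperm; same-numbered replicates deviated together by a correlation of 0.04 in endosperm and −0.01 to 0.03 in leaf, so the numbers are not taken to pair samples. Under the block INV3 in endosperm was −0.62 (adjusted p = 0.0293) and no member's call changed.

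None of the values that changed sign was called. SUS2 in endosperm, −0.0018, was 0.020 in the single fit, 0.0011 with DESeq2, 0.0033 with no filter, 0.00091 with RLE and 0.0031 with upper-quartile scaling. SUS3 in endosperm was −0.0087 with at least 5 CPM, and SUS4 in leaf was −0.00050 when thinned. FKII in leaf was −0.014 with limma-voom, −0.0064 with the replicate block and −0.0042 with upper-quartile scaling.

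Over left-out libraries, values in endosperm ran between −0.53 and −0.058 for GIF1 and −0.49 and −0.030 for SUS4, neither called, and between −0.34 and 0.27 for SUS2, −0.16 and 0.16 for SUS3, −0.32 and 0.032 for SUS6, −0.12 and 0.023 for HXK6, −0.11 and 0.0056 for NIN3, −0.39 and 1.64 for CIN1 (the higher value called, without GM replicate 2, adjusted p = 0.0115), −0.11 and 0.031 for NIN8, −0.28 and 0.023 for PMEI14, and −0.10 and 0.20 for UGP1. In leaf they ran between −0.044 and 0.15 for SUS2, −0.24 and 0.15 for FKII, and −0.021 and 0.080 for UGP1. The difference between tissues of SUS2 ran between −0.37 and 0.22, and INV3 between tissues under GM ran between −0.042 (without leaf GM replicate 1) and 0.69. Leaf reads of SUS1, INV2 and SUS6 were under 100 per library, which limits their precision.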
